A study of Mus musculus with 36 samples.

Results

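The ERVL class of endogenous retroviruses was followed in mouse embryonic fibroblasts (MEF) in which a transcriptional activator had been directed to the major satellite repeats (MSR) of pericentric heterochromatin. The members are the families that the count table assigns to the family ERVL within the class of long terminal repeat (LTR) elements, 110 of the 1561 repeat families counted. The MaLR branch (108 families, written ERVL-MaLR) and 3 families marked with a doubtful ERVL assignment were not included. Total RNA from 36 libraries was compared, from 2 lines at 6 time points, with 3 replicates for each of 12 groups. The MSR-dCas9-Control line carried a doxycycline-inducible dCas9 without an effector domain, and the MSR-dCas9-Activator line carried dCas9 fused to the activator VPR. In both lines the guide against the MSR repeats was expressed constitutively from the plasmid that held the inducible dCas9, the plasmid had been inserted with the PiggyBac transposon, and the cells were kept as mixed cultures under hygromycin and not as clones. The groups were uninduced cells, cells induced with doxycycline at 10 ng/ml, and cells taken 3, 6, 12 and 24 h later, following removal of doxycycline. Induction lasted 24 h for MSR-dCas9-Control and 6 h for MSR-dCas9-Activator, so the length of exposure to doxycycline and the effector cannot be told apart in any comparison between the lines after induction. Libraries of a MSR-dCas9-Repressor line were not used here.

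ERVL elements entered the genomes of mammals long ago, and most copies in the mouse are remnants that no longer move. MERVL is a younger family in which the internal region (MERVL-int) is flanked by LTRs of the type MT2_Mm. In the mouse these LTRs act as promoters at the 2-cell stage of the embryo, where MERVL and a set of host genes that includes the Zscan4 cluster and Zfp352 are switched on for a short time by the transcription factor Dux. In other cells the family is repressed by chromatin factors such as the histone methyltransferases Setdb1 and Ehmt1/Ehmt2, the histone demethylase Kdm1a, a variant Polycomb complex with Mga, E2f6 and L3mbtl2, and the chromatin factor Rif1. MT2A, MT2B and MT2C_Mm are older relatives of the MT2_Mm LTR, and the MLT2, LTR16, LTR33 and HERVL families date from earlier mammals.

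Per library, genes held between 27376846 and 57371803 counts (median 42865961) and the ERVL families together between 165709 and 405493 (median 275463). All ERVL families but HERVL32-int, which had a count of 0 in every library, passed the filter on low counts, so that 109 were tested. Values are normalised counts, scaled by gene counts alone, and a family's count sums its copies wherever they lie in the genome, so reads from a copy inside another transcript cannot be told apart from reads started at the element's own LTR. In bulk RNA, fewer cells that express a family and less RNA per cell cannot be told apart either. The targeted satellite GSAT_MM varied widely between replicates of the MSR-dCas9-Activator line, with 3573, 2363 and 25190 CPM (counts scaled to the size of the library in genes) in induced cells against 31.4 to 32.9 in the MSR-dCas9-Control line. In uninduced cells GSAT_MM was already higher in the MSR-dCas9-Activator line, at 99.3, 52.1 and 92.0 CPM against 36.5, 33.4 and 34.0. These groups did not overlap (exact two-sided permutation test, p = 0.1, the smallest possible). The uninduced cells of that line are thus a baseline with raised satellite counts. Replicate 2 of the induced and of the 24 h MSR-dCas9-Activator group stood apart, and the class counts, the named rises and the counts over the gene lists are also given without these libraries. Of 12 fibroblast markers 11 had a mean of at least 10 normalised counts and Thy1 did not, and their summed level was 454943 to 837007 in the 12 h and 24 h MSR-dCas9-Activator libraries against 931127 to 1447480 in all MSR-dCas9-Control libraries. In the same late libraries the summed endothelial markers reached 340 to 1458 (3.83 to 36.3 in MSR-dCas9-Control), with only Pecam1 among the 5 above a mean of 10 and Cdh5, Emcn, Kdr and Tie1 below it. The macrophage list reached 686 to 990 (446 to 617 in MSR-dCas9-Control), the pluripotent list 36 to 139 (13.7 to 45.4) and the epithelial list 81.3 to 148 (19.4 to 52.0). Their part in the ERVL results was not tested.

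MERVL-int collected the largest number of counts of all ERVL families, on average 41032 per library, and rose late. In uninduced cells it was at 30141, 24209 and 32950 normalised counts in the MSR-dCas9-Control line and at 32788, 25506 and 35310 in the MSR-dCas9-Activator line. The lines overlapped before induction. In induced cells the values were 31022, 35132 and 35861 in MSR-dCas9-Control and 40481, 34363 and 49791 in MSR-dCas9-Activator, where replicate 2 fell within the range of the control replicates. The log2 fold change was 0.27 ± 0.13 (standard error, n = 3 per line, adjusted p = 0.0741 by the quasi-likelihood test of edgeR, adjusted by Benjamini-Hochberg over 1492 repeat families), which did not pass the test and was -0.09 where libraries were scaled to 13 mitochondrial mRNAs. Without replicate 2 of the MSR-dCas9-Activator group it was 0.37 (edgeR, adjusted p = 0.0252), still under the limit of 0.5 set for a call.

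From 3 h on the lines no longer overlapped for MERVL-int. At 12 h it was at 62308, 53154 and 68071 normalised counts in MSR-dCas9-Activator cells and at 33141, 29728 and 29686 in MSR-dCas9-Control cells, a log2 fold change of 0.98 ± 0.13 (edgeR, adjusted p = 1.89e-10). All 3 MSR-dCas9-Activator libraries lay above all 3 controls. At 24 h it was at 84151, 46150 and 73642 against 32559, 33847 and 37776, a log2 fold change of 0.95 ± 0.13 (edgeR, adjusted p = 1.55e-09). Replicates 1 and 3 at 24 h were the highest of the whole series, whereas replicate 2 was the lowest of its group. Without it the log2 fold change was 1.13, and with each of the 6 compared libraries left out in turn it went down to 0.87. Compared with each line's own uninduced cells, MERVL-int had changed more in the MSR-dCas9-Activator line by 0.88 ± 0.18 on the log2 scale at 12 h (edgeR, adjusted p = 4.21e-05) and by 0.85 ± 0.18 at 24 h (edgeR, adjusted p = 0.000241). The share of all ERVL counts that fell on MERVL-int was 21.7, 15.4 and 21.3% in the 24 h MSR-dCas9-Activator libraries and 12.7, 13.5 and 13.2% in their controls (exact two-sided permutation test, p = 0.1, the smallest that 3 against 3 can give).

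MT2_Mm, the LTR of MERVL, also rose after doxycycline had been removed. It was at 7518, 6059 and 8690 normalised counts in uninduced and at 7245, 7539 and 10357 in induced MSR-dCas9-Activator cells, against 6933, 5423 and 7844 and 6998, 7621 and 7954 in MSR-dCas9-Control. Both pairs of groups overlapped. At 12 h it stood at 11308, 11899 and 13863 against 7227, 6155 and 6361, a log2 fold change of 0.90 ± 0.13 (edgeR, adjusted p = 1.41e-09). At 24 h it stood at 12737, 9538 and 13706 against 7727, 7584 and 8029, a log2 fold change of 0.62 ± 0.13 (edgeR, adjusted p = 4.39e-05), and replicate 2 was again the lowest of the MSR-dCas9-Activator group. Without it the value was 0.72, and with each compared library left out in turn it went down to 0.56. The lines' difference in change from uninduced cells was 0.48 ± 0.18 at 24 h and did not pass the test (edgeR, adjusted p = 0.0600). Within a library, where depth and scaling cancel, there were 6.61, 4.84 and 5.37 MERVL-int counts for each MT2_Mm count at 24 h in MSR-dCas9-Activator cells and 4.21, 4.46 and 4.71 in MSR-dCas9-Control cells. The groups did not overlap (exact two-sided permutation test, p = 0.1, the smallest possible), whereas at 12 h the ratios of 5.51, 4.47 and 4.91 and of 4.59, 4.83 and 4.67 did (exact permutation p = 0.6). At 6 h the groups did not overlap either, with 4.94, 4.87 and 4.98 against 4.55, 4.73 and 4.51 (exact permutation p = 0.1). In uninduced, induced and 3 h cells they overlapped (exact permutation p = 0.5, 0.2 and 0.7).

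**Figure D1:**
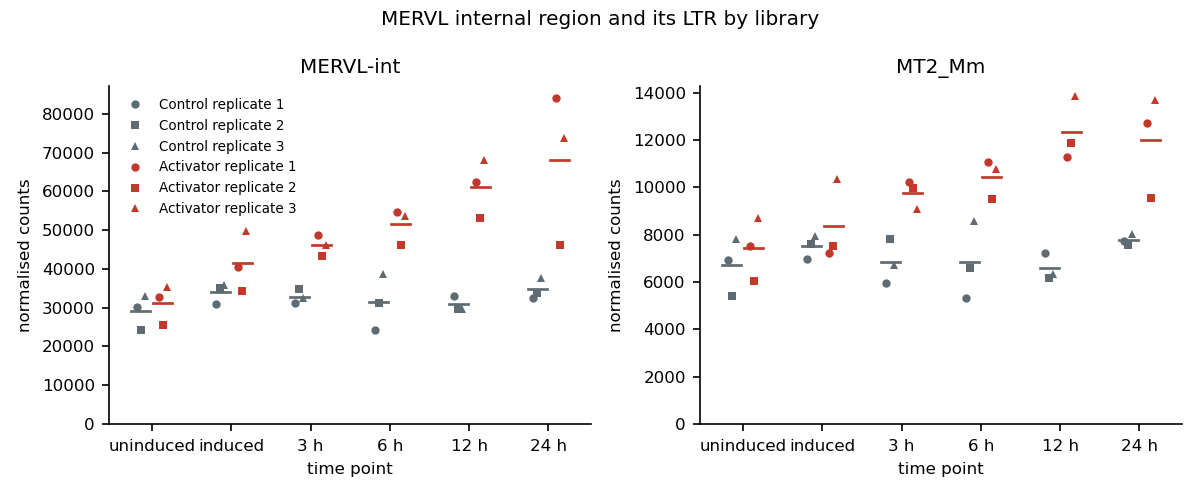
Normalised counts (vertical axes, from 0) of MERVL-int and its LTR MT2_Mm at the 6 time points in MSR-dCas9-Control (grey) and MSR-dCas9-Activator (red) libraries, with a symbol for each replicate and a bar at the mean of 3. For MERVL-int the lines overlap in uninduced and induced cells and separate from 3 h on, and replicate 2 of the 24 h MSR-dCas9-Activator group sits at 46150, below the other two of its group.

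The older relatives of MERVL had smaller log2 fold changes. Of the 8 families named MERVL or MT2, 0 were called in induced cells by edgeR (2 at an unadjusted p under 0.05, and 0 by DESeq2), 3 were higher at 12 h and 2 at 24 h, where 20.3%, 44.1% and 25.4% of all tested repeat families were higher. A family was called when its adjusted p was under 0.05 and its log2 fold change beyond 0.5. MT2A rose at 12 h, with 23094, 23815 and 24298 normalised counts against 15012, 14603 and 15000, a log2 fold change of 0.67 ± 0.13 (edgeR, adjusted p = 1.44e-06), and its change of 0.36 at 24 h lay under the limit, except without replicate 3 of the 24 h MSR-dCas9-Activator group (0.50). The 12 h calls of MERVL-int, MT2_Mm and MT2A were lost with mitochondrial scaling, at 0.36, 0.29 and 0.06, that of MT2A also with scaling to repeat families (0.28), and the 24 h call of MT2_Mm with that scaling and with scaling to repeat families (0.43 in both). MT2B, at 23205, 25350 and 24658 against 23090, 22507 and 23329 normalised counts at 12 h, had a log2 fold change of 0.09 ± 0.12 there and of 0.04 ± 0.12 at 24 h. MT2B2 had values of 0.18 ± 0.13 and 0.12 ± 0.13, and both families turned negative when libraries were scaled to mitochondrial mRNAs or to repeat families. MERVL_2A-int, an internal region related to that of MERVL, reached 0.37 ± 0.12 at 12 h and 0.18 ± 0.12 at 24 h, both under the limit. MT2B1 and MT2C_Mm came closer to it at 12 h, with 0.45 and 0.49, and passed it with DESeq2 (0.67 and 0.70) but were at -0.16 and -0.13 with mitochondrial scaling. The calls also turned on single libraries of the 12 h groups. Leaving out any of the 3 MSR-dCas9-Activator libraries, or replicate 3 of MSR-dCas9-Control, put both past the limit (0.53 to 0.56 for MT2B1 and 0.54 to 0.64 for MT2C_Mm), as did replicate 1 of MSR-dCas9-Control for MT2C_Mm (0.53). RMER15, a rodent LTR with the second largest count of the class, was at 41678, 42639 and 43467 against 29720, 28696 and 29168 at 12 h and was called there only, with a log2 fold change of 0.54 ± 0.13 (edgeR, adjusted p = 7.19e-05). That call was lost with gene totals alone (0.44) and with scaling to repeat families (0.15), and the value turned to -0.07 with mitochondrial scaling.

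Among families that averaged 100 normalised counts or more, the largest rises lay in older families with fewer counts than MERVL, and they were present in induced cells before MERVL passed the test. HERV16-int, the internal region of an ancient ERVL family, was at 556, 262 and 571 normalised counts in MSR-dCas9-Activator cells after induction and at 117, 143 and 115 in MSR-dCas9-Control cells, a log2 fold change of 1.87 ± 0.24 (edgeR, adjusted p = 6.37e-08). HERVL74-int, another internal region, was at 761, 511 and 946 against 170, 279 and 209, a log2 fold change of 1.77 ± 0.20 (edgeR, adjusted p = 3.03e-10). LTR16A2, an LTR found across mammals, was at 578, 331 and 731 against 167, 208 and 172, a log2 fold change of 1.55 ± 0.18 (edgeR, adjusted p = 2.39e-11). In each of them replicate 2 was the lowest of the induced MSR-dCas9-Activator libraries and still above every control, and without it the log2 fold changes were 2.19, 2.04 and 1.82. Leaving out each of the 6 compared libraries in turn gave values down to 1.72, 1.54 and 1.31. LTR75B (1.25 ± 0.22), LTR52 (1.08 ± 0.20) and ERV3-16A3_I-int (1.02 ± 0.17) also rose in induced cells, with 1.45, 1.33 and 1.26 without that replicate. With each library left out in turn they went down to 1.07, 0.86 and 0.82. At lower counts, and chosen after their values were seen, LTR91 and LTR52-int had larger log2 fold changes. The lines differed in LTR91 before induction already, with means of 5.94 normalised counts in MSR-dCas9-Activator and 1.75 in MSR-dCas9-Control cells. These uninduced groups did not overlap, and the log2 fold change was 1.84 (edgeR, unadjusted p = 0.0174), which was not called. The induced value of LTR91 includes this earlier difference. Its MSR-dCas9-Control means were 4.51 in induced and 2.99 in 24 h cells, under the minimum count of 10 of the filter. LTR91 can thus have passed the filter through the libraries where it was high, so that being tested and being called higher are linked. LTR91 was at 42.9, 20.7 and 75.7 normalised counts against 0.775, 6.70 and 6.05 in induced cells, a log2 fold change of 3.43 ± 0.46 (edgeR, adjusted p = 3.41e-10), and LTR52-int, at 128.6, 50.1 and 137.8 against 19.1, 12.1 and 10.7, was at 2.83 ± 0.40 (edgeR, adjusted p = 6.21e-07).

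These rises held after doxycycline had been removed. At 12 h the log2 fold changes were 2.25 for LTR16A2, 2.18 for HERV16-int, 2.06 for HERVL74-int, 2.04 for ERV3-16A3_I-int, 1.38 for LTR75B and 1.27 for LTR52. ERV3-16A3_I-int, the internal region of a family shared by many mammals, had the largest counts of these families, at 1983, 1876 and 2423 in MSR-dCas9-Activator cells at 12 h against 509, 486 and 530 in MSR-dCas9-Control cells. At 24 h LTR16A2 was at 875, 413 and 653 against 206, 190 and 207 normalised counts, a log2 fold change of 1.67 ± 0.18 (edgeR, adjusted p = 1.5e-12). HERVL74-int was at 782, 455 and 632 against 200, 193 and 238, a log2 fold change of 1.56 ± 0.20 (edgeR, adjusted p = 5.44e-09). The groups did not overlap in either family, and replicate 2 was the lowest of the 24 h MSR-dCas9-Activator libraries in both. Without it they were at 1.87 and 1.76, and with each library left out in turn they went down to 1.53 and 1.46. The 24 h values of ERV3-16A3_I-int (1.35 ± 0.17), HERV16-int (1.33 ± 0.23), LTR75B (1.04 ± 0.22) and LTR52 (0.87 ± 0.19) were smaller than those at 12 h, and without replicate 2 they came to 1.55, 1.54, 1.22 and 1.03. Under the 5 other scalings these 6 families kept a positive value in induced cells and at 24 h, although LTR52 at 24 h lost its call with mitochondrial scaling (0.65).

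**Figure D2:**
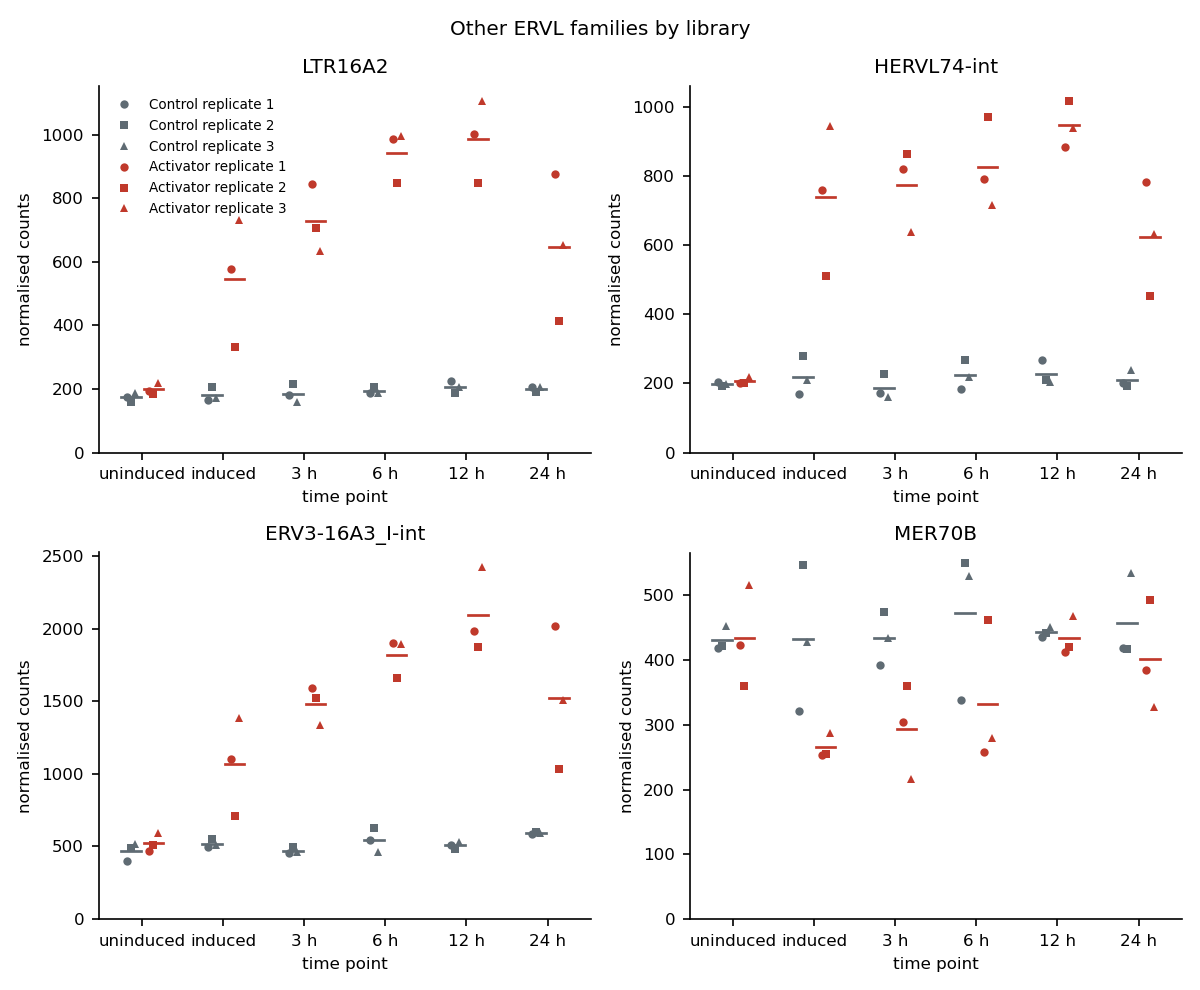
Normalised counts (vertical axes, from 0) of LTR16A2, HERVL74-int, ERV3-16A3_I-int and MER70B at the 6 time points in MSR-dCas9-Control (grey) and MSR-dCas9-Activator (red) libraries, with a symbol for each replicate and a bar at the mean of 3. The first 3 families separate from induction on, with replicate 2 of the induced MSR-dCas9-Activator group the lowest of its group, while MER70B lies below the controls in induced cells and among them at 12 h.

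A family of very low counts stood out beyond the rule for named families and was chosen after its values were seen. MER76-int held 62 counts over the 3 induced MSR-dCas9-Activator libraries against 3 in MSR-dCas9-Control, a ratio of 18.6 (95% interval 6.08 to 92.6, for counting error only). At 12 h it held 131 against 0 and at 24 h 80 against 0, which made it at least 49.1-fold and 26.2-fold higher, taking 3 counts over the control group as the limit that a count of 0 allows. In uninduced cells it held 6 counts against 2. With so few control counts, MER76-int can have passed the filter on low counts through the libraries where it was high. Being tested and being higher are then linked.

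Few ERVL families fell, 7 in all at 1 or more time points, where 18.6% of all tested repeat families did, and 2 at 12 h (6.57% of all repeat families were lower there). MER70B, an LTR of older origin, was at 254, 255 and 287 normalised counts in MSR-dCas9-Activator cells after induction against 321, 547 and 428 in MSR-dCas9-Control cells, a log2 fold change of -0.68 ± 0.17 (edgeR, adjusted p = 0.000774). All 3 MSR-dCas9-Activator libraries lay below the controls, whereas at 12 h, with 412, 419 and 468 against 436, 441 and 452, the groups overlapped. LTR84a (-0.61 ± 0.18) and LTR82B (-0.59 ± 0.15) also fell in induced cells, and without replicate 2 of the induced MSR-dCas9-Activator group their values of -0.45 and -0.44 no longer passed the limit. Between the induced and the 24 h MSR-dCas9-Activator cells the 3 families rose, by 0.59, 0.66 and 0.56 on the log2 scale. The deepest fall lay outside the rule for named families and was chosen after its values were seen: LTR108d_Mam was at 20.2, 31.6 and 13.6 against 58.1, 77.5 and 112 in induced cells, with a log2 fold change of -1.93 ± 0.30 (edgeR, adjusted p = 5.52e-08), and at -1.29 at 12 h. MER70-int, chosen in the same way, was at -0.79 at 12 h, and LTR86B1, the single family lower at 24 h, at -0.83.

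**Figure D3:**
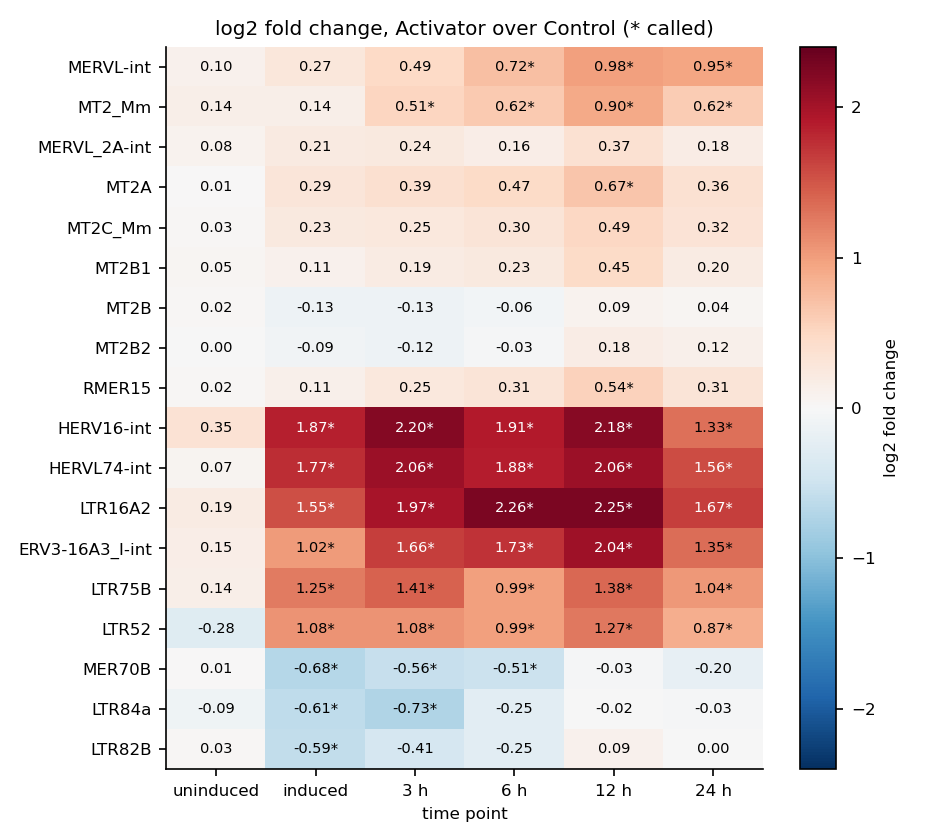
Log2 fold change of MSR-dCas9-Activator against MSR-dCas9-Control for the named ERVL families (one line each) at the 6 time points (columns), with the value printed in each cell and colour from blue (lower) to red (higher). HERV16-int, HERVL74-int and LTR16A2 are above 1.5 from induction to 12 h, MERVL-int climbs from 0.10 in uninduced cells to 0.98 at 12 h, and MER70B, LTR84a and LTR82B are negative in induced cells.

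Across the class, the number of families higher in MSR-dCas9-Activator cells grew until 12 h and then fell. In uninduced cells 0 of 109 ERVL families were called by edgeR (1 at an unadjusted p under 0.05, and 0 by DESeq2), against 0.0670% of all tested repeat families in either direction. In induced cells 23 were higher and 4 lower, 21.1% and 3.67% of the class, while 20.3% and 12.0% of all repeat families were. At 3 h 43 were higher and 5 lower, at 39.4% and 4.59% against 31.6% and 15.0%. At 6 h 48 were higher and 3 lower, at 44.0% and 2.75% against 34.5% and 11.2%. At 12 h 63 were higher and 2 lower, at 57.8% and 1.83% against 44.1% and 6.57%. At 24 h 30 were higher and 1 lower, at 27.5% and 0.917% against 25.4% and 2.88%. The share that rose was thus close to that of all repeats in induced and 24 h cells. At each of the 5 times the share that fell was below that of all repeats, as it also was for the LTR classes ERVL-MaLR and ERVK. The median log2 fold change over the 109 families was 0.14 in induced cells and 0.61 at 12 h, where that over all repeats was 0.01 and 0.42.

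The split between rises and falls depended on the scaling of the libraries. Scaling to the 13 mitochondrial mRNAs moved the median of all genes by -0.36 in induced cells, -0.60 after 3 h, -0.72 after 6 h, -0.63 after 12 h and -0.17 after 24 h, and the ERVL calls became 10 higher and 13 lower, 11 and 31, 9 and 31, 16 and 15, and 12 and 1. Scaling to the repeat families without satellites moved that median by -0.40 at 12 h and gave 32 higher and 11 lower for 3 h, 31 and 8 for 6 h and 31 and 9 for 12 h. A scaling moves all families of a comparison alike. The shares of all repeat families under the other scalings were not counted, so these splits, here and below, cannot be read as particular to ERVL. The gene total without further scaling gave 35 higher and 8 lower at 6 h, and without replicate 3 of the induced MSR-dCas9-Activator group the induced calls were 17 higher and 6 lower. Without replicate 3 of the 24 h MSR-dCas9-Activator group 48 families were called at 24 h in place of 31. Without replicate 2 of the MSR-dCas9-Activator group the calls were 38 higher and 2 lower in induced cells and 39 and 3 at 24 h. DESeq2 gave 54 higher and 1 lower at 24 h, and fits to the compared libraries alone gave 12 and 1 in induced cells and 51 calls, all higher, at 24 h.

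**Figure D4:**
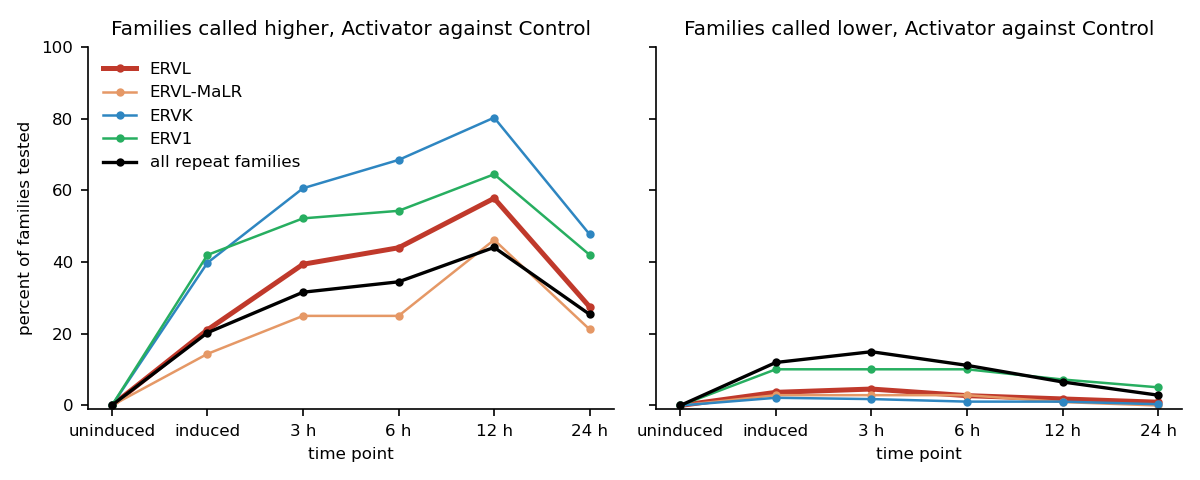
Percent of tested families (vertical axis) called higher (left) and lower (right) in MSR-dCas9-Activator against MSR-dCas9-Control cells at the 6 time points, with a line each for ERVL, ERVL-MaLR, ERVK, ERV1 and all repeat families. The ERVL share called higher grows from 21.1% in induced cells to 57.8% at 12 h and is 27.5% at 24 h.

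The ERVL share lay between those of the other LTR classes. At 12 h 57.8% of ERVL families were higher, against 46.2% of ERVL-MaLR, 64.5% of ERV1 and 80.3% of ERVK families. In induced cells the shares were 21.1% for ERVL, 14.4% for ERVL-MaLR, 39.8% for ERVK and 42.0% for ERV1. The share called lower was small in ERVL-MaLR and ERVK too, at 2.88% and 2.15% in induced cells and 0.962% and 1.08% at 12 h. For ERVL it was 3.67% and 1.83% at these times, and for ERV1 10.1% and 7.25%. A low share of falls was thus not particular to ERVL. The differences between classes were not tested. Of the 109 families 74 had their largest log2 fold change at 12 h (67.9%, against 57.7% of all repeat families) and 3 at 24 h. In all, 66 families were higher at 1 or more of the 5 later times and 18 at all 5, while 45.5% and 16.8% of all repeat families were. There were 7 that were lower at 1 or more, 36 that were never called and 0 called in both directions, against 18.6%, 36.3% and 0.402% of all repeat families. Of the 23 families higher in induced cells, 23 were also higher after 3 h, 22 after 6 h, 22 after 12 h and 18 after 24 h, or 100%, 95.7%, 95.7% and 78.3%. Of the 303 repeat families of all kinds higher in induced cells, 97.7%, 96.0%, 98.3% and 84.5% were, so that the ERVL families lay close to repeats in general. These comparisons use separate libraries at each time.

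Within the class, both internal regions and LTRs held families that rose. In induced cells 7 of 15 internal regions (46.7%) and 16 of 94 LTRs (17%) were higher, where 20.3% of all tested repeat families were. At 12 h 11 of 15 (73.3%) and 52 of 94 (55.3%) were, against 44.1% of all tested repeat families. The 55 families with a name that begins with LTR followed the class, with 12 (21.8%) higher in induced cells and 34 (61.8%) at 12 h. The 10 MLT2 families had 1 (10%) and 6 (60%). In induced cells 17 of the 55 families at or below the median count of the class (30.9%) and 6 of the 54 above it (11.1%) were higher. At 12 h 31 (56.4%) and 32 (59.3%) were. Families of very low counts can pass the filter through the libraries where they are high, which links being tested to being called. The differences between these groups of families were not tested.

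**Figure D5:**
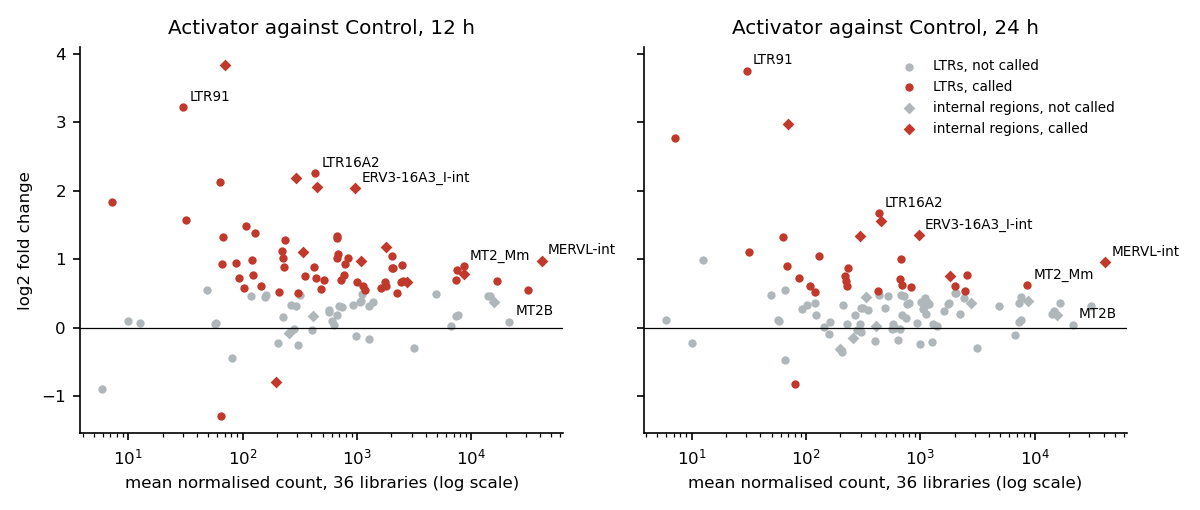
Log2 fold change of MSR-dCas9-Activator against MSR-dCas9-Control (vertical axis) against the mean normalised count of each family over the 36 libraries (horizontal axis, log scale) for 108 ERVL families at 12 h (left) and 24 h (right), with LTRs as circles, internal regions as diamonds and called families in red; MER76-int is left out. MERVL-int lies at the right end, at 0.98 and 0.95, and the largest log2 fold changes, such as that of LTR91, lie at lower counts.

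The summed counts of all ERVL families, relative to gene counts, separated the lines at 12 h and 24 h. As CPM over gene counts they came to 8351, 9546 and 8000 in MSR-dCas9-Activator and 6557, 6120 and 5874 in MSR-dCas9-Control libraries at 12 h, a ratio of 1.40 (exact two-sided permutation test, p = 0.1, the smallest that 3 against 3 can give). At 24 h they came to 10520, 8585 and 8777 against 6725, 6508 and 6949, a ratio of 1.38 (exact permutation p = 0.1). The groups did not overlap at either time, while in uninduced, induced, 3 h and 6 h cells they did, with ratios of 1.06, 1.06, 1.14 and 1.17 (exact permutation p = 0.7, 0.6, 0.4 and 0.2). Repeat families as a whole took 20.8 to 23.3% of all counts in the 12 h and 24 h MSR-dCas9-Control libraries and 26.5 to 30.6% in those of MSR-dCas9-Activator (exact permutation p = 0.1 at both times). The order of the times differed when ERVL was taken as a share of repeat counts without satellites. In induced cells it stood at 2.49, 2.29 and 2.65% in MSR-dCas9-Activator against 2.18, 2.26 and 2.26% in MSR-dCas9-Control libraries, a ratio of 1.11, and the ratio was 1.13 after 3 h and 1.11 after 6 h. The groups did not overlap at these 3 times (exact permutation p = 0.1 at each), whereas in uninduced cells they did, with a ratio of 0.99 (exact permutation p = 0.9). The share was 2.54, 2.37 and 2.49% against 2.22, 2.22 and 2.30% at 24 h (exact permutation p = 0.1), and 2.38, 2.56 and 2.01% against 2.28, 2.20 and 2.24% at 12 h, where the groups overlapped (exact permutation p = 0.7).

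Within the lines, the change followed induction in the MSR-dCas9-Activator cells. Doxycycline in MSR-dCas9-Control cells gave 0 called ERVL families by edgeR (2 at an unadjusted p under 0.05, and 0 by DESeq2), as it did for 0.00% of all repeat families. Induced against uninduced MSR-dCas9-Activator cells gave 21 higher and 5 lower (20.0% and 12.3% of all repeats), and mitochondrial scaling gave 6 and 38. From induced to 24 h cells of that line 18 families were higher (21.0% of all repeats) and 0 lower by edgeR (0 at an unadjusted p under 0.05, and 0 by DESeq2, with 1.01% of all repeats lower), among them MERVL-int with 0.71 ± 0.13 (edgeR, adjusted p = 1.15e-05). That count was 36 without replicate 1 and 48 without replicate 3 of the induced group, and 29 without replicate 3 of the 24 h group, and scaling to repeat families gave 7 higher and 3 lower. It was 77 with mitochondrial scaling and 51 with gene totals alone, all of them higher.

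The lines' difference in the change from their own uninduced cells was tested directly, and the 5 comparisons share the uninduced libraries. It was higher in MSR-dCas9-Activator for 14 ERVL families in induced cells and lower for 3 (12.2% and 9.65% of all repeats). At 3 h it was higher for 32 and lower for 4 (24.8% and 12.7%), and at 6 h for 35 and 2 (26.6% and 9.65%). At 12 h it was higher for 55 and lower for 2 (38.7% and 5.43%), and at 24 h for 19 and 1 (15.8% and 1.14%). Mitochondrial scaling turned these splits into 4 and 3, 6 and 16, 5 and 20, and 8 and 6 from induced to 12 h cells. Scaling to repeat families gave 26 and 10, 28 and 8, and 26 and 9 at 3, 6 and 12 h, and the gene total alone 21 and 8 at 3 h and 17 and 6 at 6 h. For these splits, too, the shares of all repeat families were not counted. Single libraries moved the induced total of 17 to 11 without uninduced replicate 1 or induced replicate 3, and to 27 without induced replicate 2, of MSR-dCas9-Activator. The 24 h total of 20 became 37 without uninduced replicate 3 and 31 without 24 h replicate 2 of MSR-dCas9-Activator. It was between 10 and 13 without its uninduced replicate 1 or 2, its 24 h replicate 1, or uninduced replicate 2, 24 h replicate 1 or 24 h replicate 2 of MSR-dCas9-Control.

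Some genes from a list of MERVL repressors and chromatin factors fell in MSR-dCas9-Activator cells, most of them at 12 h and 24 h. The list also holds general factors of heterochromatin and DNA methylation, and a fall is not evidence that a gene represses MERVL. Of 34 tested genes in a list of 35, 2 were lower in induced cells, 6 after 3 h, 7 after 6 h, 11 after 12 h and 8 after 24 h, and 1 (the SUMO ligase Pias4) was higher from 3 h on. A gene was called when its adjusted p was under 0.05 and its log2 fold change beyond 1, which held for 22.2% (higher) and 12.1% (lower) of all genes in induced cells, 27.4% and 18.5% after 3 h, 29.0% and 19.5% after 6 h, 31.6% and 18.8% after 12 h and 28.1% and 7.29% after 24 h. The share of the list that was lower was thus below that of all genes in induced cells, close to it after 3 h and 6 h, and above it at 12 h and 24 h, and this difference was not tested. The histone methyltransferase Setdb1 (chr3:95323525-95357202, GRCm38) was at 1061, 1682 and 1175 normalised counts at 12 h against 4496, 4310 and 4256, a log2 fold change of -1.75 ± 0.15 (edgeR, adjusted p = 1.98e-11). Every MSR-dCas9-Activator library lay below every control, and at 24 h its value of -0.89 no longer passed the limit.

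At 12 h the other lower genes were E2f6 (-1.81), Mga (-1.14) and L3mbtl2 (-1.20) of the variant Polycomb complex, Rif1 (-1.67), the methyltransferases Suv39h1 (-1.49) and Ehmt1 (-1.32), the heterochromatin proteins Cbx5 (-1.55) and Cbx3 (-1.26), Smchd1 (-1.08) and the zinc finger protein Zmym2 (-1.20). In induced cells only E2f6 (-1.46) and Zmym2 (-1.02) passed. At 24 h the maintenance methyltransferase Dnmt1 (-1.25) and its partner Uhrf1 (-1.18) were lower beside Cbx3, Cbx5, Ehmt1, Rif1, Smchd1 and Suv39h1, and Pias4 was higher (1.65 at 12 h and 1.38 at 24 h). The list's median was -0.69 at 12 h, where that of all genes was 0.13. Its count in induced cells was 4 without replicate 2 and 1 without replicate 3 of the MSR-dCas9-Activator group. Whether these genes bear on the ERVL values was not tested.

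Genes of the 2-cell stage rose while staying at low counts. Of 33 genes 25 were tested, and 1, 12, 18, 19, 22 and 22 were higher in uninduced, induced, 3 h, 6 h, 12 h and 24 h cells, where 0.636%, 22.2%, 27.4%, 29.0%, 31.6% and 28.1% of all genes were. Genes this low can pass the filter on low counts through the libraries where they are high. Being tested and being called higher are then linked, so the share of all genes is not a fair measure for this list. The 12 h count was 12 with mitochondrial scaling and 14 with scaling to repeat families. Without replicate 2 of the MSR-dCas9-Activator group it was 12 in induced and 23 in 24 h cells, and without replicate 3 it was 8 in induced cells. Arg2, the arginase of mitochondria (chr12:79130777-79156301), was at 212, 228 and 198 normalised counts at 12 h against 31.7, 22.1 and 28.5, a log2 fold change of 2.97 ± 0.26 (edgeR, adjusted p = 4.48e-11). Zfp352, a zinc finger gene of the early embryo (chr4:90218820-90225702), was at 114, 32.8 and 116 against 6.34, 7.64 and 7.85 at 12 h, with a log2 fold change of 3.44 ± 0.64 (edgeR, adjusted p = 2.93e-05). Neither gene overlapped between the lines at 12 h, and at 24 h the 120, 16.6 and 68.5 of Zfp352 still lay above its controls at 7.78, 11.2 and 2.68.

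The rest of the list was lower still. At 24 h Zscan4c stood at 31.2, 1.85 and 17.6 against 2.59, 5.59 and 1.79, and the groups overlapped through replicate 2. Reads of the Zscan4 and Usp17l genes, of Tcstv3, AF067061, Gm4340, Gm5662 and Gm8300 may be divided among near-identical copies, so their single values are uncertain. Usp17la was the gene that was higher in uninduced cells already, a call that was lost without the replicate term and with mitochondrial scaling, and Trim43c was lower from 3 h on (-1.25 at 12 h and -1.04 at 24 h). Where calls were limited to genes with a mean above 100, as 1 of the alternatives, edgeR called 0 of the list. As most genes of the list are low, this limit leaves most of them out, and the 0 says little about their rise. Of the activators of MERVL only Nelfa and Gata2 were tested, and neither passed the limit at any time, with -0.62 and -0.12 at 12 h. Duxf3, which encodes Dux, had 50 counts over all 36 libraries, Dppa2 103 and Dppa4 27, too few to be tested.

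Replicate 2 of the MSR-dCas9-Activator line was low for many of these families in induced and 24 h cells. It was the lowest of its group for 23 of the 23 ERVL families higher in induced cells, and for 94 of all 109. At 24 h it was the lowest for 29 of the 30 higher families, for 77 of all 109 and for 22 of the 22 higher 2-cell genes. Its GSAT_MM level was the lowest of its group at both times, with 10772 CPM at 24 h against 11482 and 35410 in replicates 1 and 3. Replicate 1, close to it in GSAT_MM at 24 h, had the largest MERVL-int and LTR16A2 values of that group. At 3, 6 and 12 h replicate 1 had the lowest GSAT_MM, with 4151, 6312 and 7995 CPM against 10949, 18608 and 18721 in replicate 2. The part of the satellite level in the ERVL values was not tested.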

How the data were processed

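RNA was sequenced as ribosomal-RNA-depleted, stranded total RNA in paired reads of 150 bp. The authors trimmed the reads by quality, aligned them with STAR to GRCm38 and assigned reads to genes and repeats with TEtranscripts; the deposited values are unnormalised counts. The sharing of reads with several matches, the strand setting and the repeat annotation are not given in the sources used here. An unnamed entry (0.00326% of counts) was left out. Samples were grouped by their labels. Repeat families were tested with edgeR 4.0.16 (R 4.3.3), quasi-likelihood, with 12 groups and the replicate number as a term over 36 libraries. Library sizes were gene totals scaled by TMM, low families were removed with filterByExpr (minimum count 10), and p-values were adjusted over 1492 families; 28621 genes were fitted separately. Normalised counts are counts divided by the effective library size relative to its geometric mean. The standard errors and p-values of edgeR rest on the spread between replicates, which the study calls biological, estimated over all 12 groups together. They do not measure the spread of the compared groups alone. That spread could be wider in MSR-dCas9-Activator cells. For MERVL-int at 24 h the standard deviation was 19623 normalised counts there and 2717 in MSR-dCas9-Control. Gene coordinates are those of GENCODE on GRCm38 (54409 of 54842 genes matched).

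Named families were those beginning with MERVL or MT2, the 5 with the largest mean count, and in induced and 24 h cells the 5 largest called rises and falls with a mean of at least 100. Members and lists were chosen with earlier results of these data known. Scripts were tested on simulated data. Alternatives were DESeq2 1.42.0, other scalings, filters and sets of libraries, the fit without the replicate term, and leaving out each library; the scalings of the gene lists and the 12 h alternatives of families not named MERVL or MT2 were chosen after seeing the data.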

Additional observations from a re-analysis of the deposited data

Results flagged for a closer look

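The change from uninduced cells differed between the lines, by a direct test of the difference in edgeR, for 17 ERVL families in induced cells, 36 after 3 h, 37 after 6 h, 57 after 12 h and 20 after 24 h. Of all tested repeat families, 12.2% were called higher and 9.65% lower by this test in induced cells. The shares were 24.8% and 12.7% after 3 h, 26.6% and 9.65% after 6 h, and 38.7% and 5.43% after 12 h. After 24 h they were 15.8% and 1.14%. In induced cells the difference (MSR-dCas9-Activator minus MSR-dCas9-Control, log2) was 1.70 for HERVL74-int, 1.52 for HERV16-int, 1.37 for LTR52, 1.36 for LTR16A2, 1.11 for LTR75B and 0.87 for ERV3-16A3_I-int, and it was -0.62 for LTR82B and -0.69 for MER70B. At 24 h it was 1.50 for HERVL74-int, 1.47 for LTR16A2, 1.19 for ERV3-16A3_I-int, 1.15 for LTR52, 0.98 for HERV16-int, 0.89 for LTR75B and 0.85 for MERVL-int. The length of doxycycline exposure and the effector cannot be told apart in these differences.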

How the results depend on the processing

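Of the alternatives for values that answer a comparison, 464 were scored as kept, 60 moved, 2 lost their call and 2 reversed. For counts of calls, kept meant a count within a fixed factor of the main count. The split of ERVL calls into higher and lower was not scored. The 21 to 40 induced calls with 1 library left out were thus all scored as kept. For ratios, kept meant a shift smaller than the spread between replicates. Only for single families did it mean the same direction and side of the threshold. For single named families 702 were kept, 12 lost and 24 gained a call and 62 reversed. Where not stated, the cause was not tested. Same-numbered libraries of the lines correlated between -0.14 and 0.35 in repeat families, over 0.1 in 12 of 18 pairs, so they were not shown to pair the samples, and the replicate term was kept because the study's design has it. Without the replicate block the ERVL calls were 0, 28, 46, 50, 65 and 30 from uninduced to 24 h cells, the line difference at 24 h gave 14, MERVL-int at 24 h was at 0.97, listed repressors and chromatin factors lower in induced cells 1 and 2-cell genes higher in uninduced cells 0. With only the libraries compared (fewer samples), induced calls were 13, 24 h calls 51 and the 24 h line difference 36. DESeq2 gave 55 calls and a difference of 38 at 24 h, and its size factors 55 and 36. Mitochondrial scaling gave 31 calls at 12 h and 13 at 24 h, line differences of 7, 22, 14 and 3 in induced, 3 h, 12 h and 24 h cells, 44 for induction and 77 from induced to 24 h in MSR-dCas9-Activator. Scaling to repeats gave 40 at 12 h, a line difference of 35 and 10 from induced to 24 h, and gene totals alone 23 for the 6 h line difference and 51 from induced to 24 h.

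With mitochondrial scaling the log2 fold change in induced cells was -0.094 for MERVL-int, -0.22 for MT2_Mm, -0.16 for MERVL_2A-int, -0.077 for MT2A, -0.26 for MT2B1, -0.13 for MT2C_Mm and -0.25 for RMER15; at 12 h -0.24 for MERVL_2A-int, -0.16 for MT2B1, -0.43 for MT2B2, -0.53 for MT2B, -0.13 for MT2C_Mm, -0.070 for RMER15 and -0.52 for LTR82B; and at 24 h -0.022 for MERVL_2A-int, -0.0052 for MT2B1, -0.089 for MT2B2 and -0.16 for MT2B. MT2_Mm at 24 h lost its call with it (0.43) and with scaling to repeats (0.43). MERVL-int at 12 h fell to 0.36 with it. Scaling to repeats gave -0.026, -0.22, -0.31 and -0.30 at 12 h for MERVL_2A-int, MT2B2, MT2B and LTR82B, and -0.057 and -0.13 at 24 h for MT2B2 and MT2B; gene totals gave -0.014 for MT2B and -0.0050 for LTR82B at 12 h. At 12 h MER70B was at 0.18 with DESeq2 and its size factors and 0.12 with only the libraries compared, and LTR84a at 0.20, 0.20 and 0.15. At 24 h LTR84a was at 0.12 with DESeq2 and its size factors, 0.050 with gene totals and 0.15 with only the libraries compared, and LTR82B at 0.15, 0.15, 0.080 and 0.16. With satellites in the denominator the ERVL share ratio was 1.08, 1.04 and 1.04 at 3, 6 and 24 h. Listed repressors and chromatin factors called lower were 1 (DESeq2 size factors), 4 (gene totals) and 7 (mitochondrial) in induced cells, 12 and 20 at 3 h and 6 h (mitochondrial), 7, 21 and 20 (size factors, mitochondrial, repeats) at 12 h and 4 (size factors) at 24 h. The shares of all genes under these scalings were not counted, so the counts over the gene lists cannot be read as particular to them. 2-cell genes called higher were 0 at all 6 times with a mean above 100, 0 in uninduced cells and 12 at 12 h with mitochondrial scaling, and 14 at 12 h with scaling to repeats.

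Leaving out 1 library gave 29 to 48 calls at 24 h, line differences of 11 to 27 in induced and 10 to 37 in 24 h cells, 16 to 48 from induced to 24 h, and 1 to 4 listed repressors and chromatin factors lower in induced cells. In induced cells it gave -0.0089 to 0.27 for MT2B1, -0.21 to 0.053 for MT2B2, -0.24 to 0.0036 for MT2B and -0.0019 to 0.29 for RMER15, at 12 h -0.11 to 0.13 for MER70B and -0.15 to 0.16 for LTR84a, and at 24 h -0.022 to 0.19 for MT2B, -0.32 to 0.062 for MER70B, -0.15 to 0.083 for LTR84a and -0.058 to 0.20 for LTR82B. Depth limits families such as MER76-int, whose control counts were 0 to 3.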
